A study of Homo sapiens and Mus musculus with 10 samples.

Results

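CpG-poor promoters are promoters whose DNA holds few of the CpG dinucleotides that its C and G content would give. For each of 19111 autosomal protein-coding genes of GENCODE release 44, the CpG observed-to-expected ratio (the CpG number times the length, over the product of the C and G numbers) was computed from the GRCh38 sequence over 500 bp on either side of the gene start. The 5040 promoters with a ratio below 0.35 (26.4% of all) are the subject here, and the 10628 with a ratio above 0.65, called CpG-rich, are the comparison. The choice used sequence alone and no measured accessibility.

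Vertebrate DNA is methylated mostly at CpG, and methylated C is lost over evolution by deamination, so most of the genome is poor in CpG. CpG islands, which stay unmethylated in most tissues, escape this loss and form the promoters of most housekeeping and developmental genes. CpG-poor promoters lie outside islands, are often methylated where the gene is silent, and belong largely to genes used in few tissues, such as those of blood cells, liver, skin and the chemical senses.

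Accessible chromatin was measured by bulk short-read ATAC-seq, in which the Tn5 transposase inserts adapters into open DNA, in 2 libraries each of 4 human lines. All cells were unmanipulated cultures that had been frozen and thawed, with no treatment. GM12878 is an Epstein-Barr virus-transformed B-lymphoblastoid line, and HEK293T derives from embryonic kidney cells and expresses large T antigen of SV40. HFF1 is a foreskin fibroblast line, and K562 is an erythroleukaemia line from chronic myeloid leukaemia; each stands for its tissue as a single cultured line. A promoter has a peak in a library when a deposited peak overlaps its window by at least 1 bp, and it is called in a line when both replicates have a peak.

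The depth of the lists differed. They held between 50183 autosomal peaks (HEK293T replicate 2) and 124544 (HFF1 replicate 1). The background recovered from the deposited values, in reads per window, was 0.465 and 0.466 in HEK293T, 1.71 and 1.73 in GM12878, 2.43 and 2.06 in HFF1 and 2.21 and 1.97 in K562. HEK293T was therefore the shallowest line, and its part in the counts below was examined by scaling the other lists down to its background level. Peak names in GM12878 also carry another prefix than in the other 3 lines, where replicates 1 and 2 have a prefix each; what the prefixes stand for is not given in the labels.

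To show what separates the classes, the 200 bases upstream of the gene start are printed in GRCh38 on the gene's strand, 5′ to 3′, with every CpG in capitals; none overlaps an annotated exon. The examples for each line were taken from the highest-ranked promoters that were called there, had no peak in the other lines, start at the gene's canonical transcript and have no exon in the printed stretch. MNDA (chr1:158831151-158831350, plus strand), an interferon-inducible nuclear antigen of myeloid and B cells, and SLAMF1 (chr1:160647045-160647244, minus strand), a lymphocyte adhesion receptor, stand for GM12878. NRXN3 (chr14:78170173-78170372, plus strand), a synaptic adhesion protein, stands for HEK293T. TNFAIP6 (chr2:151357392-151357591, plus strand), a hyaluronan-binding secreted protein, and GALNT15 (chr3:16174480-16174679, plus strand), a glycosyltransferase, stand for HFF1. RHAG (chr6:49636840-49637039, minus strand), the Rh-associated glycoprotein of red cells, and KEL (chr7:142962364-142962563, minus strand), the Kell blood group protein, stand for K562. SLC7A11 (chr4:138242350-138242549, minus strand), the cystine transporter subunit, was CpG-poor and called in all 4 lines. ELMOD2 (chr4:140523968-140524167, plus strand) is the CpG-rich contrast, the highest-ranked promoter called in all 4 lines under the same conditions.
MNDA: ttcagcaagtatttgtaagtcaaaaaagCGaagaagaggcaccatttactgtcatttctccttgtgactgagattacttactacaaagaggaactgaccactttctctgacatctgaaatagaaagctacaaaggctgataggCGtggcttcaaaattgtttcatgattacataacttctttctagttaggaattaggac
SLAMF1: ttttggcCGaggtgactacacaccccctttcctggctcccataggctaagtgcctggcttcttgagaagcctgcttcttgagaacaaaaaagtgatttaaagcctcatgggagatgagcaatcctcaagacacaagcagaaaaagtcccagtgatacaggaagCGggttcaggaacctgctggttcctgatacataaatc
NRXN3: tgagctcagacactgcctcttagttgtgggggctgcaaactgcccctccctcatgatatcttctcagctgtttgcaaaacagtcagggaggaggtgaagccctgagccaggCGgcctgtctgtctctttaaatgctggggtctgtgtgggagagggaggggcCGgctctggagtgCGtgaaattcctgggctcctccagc
TNFAIP6: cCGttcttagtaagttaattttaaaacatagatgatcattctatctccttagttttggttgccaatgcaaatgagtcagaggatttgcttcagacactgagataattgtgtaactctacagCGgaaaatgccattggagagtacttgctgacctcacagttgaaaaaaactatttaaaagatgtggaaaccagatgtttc
GALNT15: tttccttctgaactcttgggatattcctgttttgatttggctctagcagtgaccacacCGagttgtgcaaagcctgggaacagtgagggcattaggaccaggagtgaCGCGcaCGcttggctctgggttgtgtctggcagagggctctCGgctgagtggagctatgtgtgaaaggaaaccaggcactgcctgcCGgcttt
RHAG: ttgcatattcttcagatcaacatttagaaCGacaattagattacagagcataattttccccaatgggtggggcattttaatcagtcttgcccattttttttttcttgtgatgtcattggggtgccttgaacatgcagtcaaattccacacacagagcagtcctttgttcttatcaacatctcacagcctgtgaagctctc
KEL: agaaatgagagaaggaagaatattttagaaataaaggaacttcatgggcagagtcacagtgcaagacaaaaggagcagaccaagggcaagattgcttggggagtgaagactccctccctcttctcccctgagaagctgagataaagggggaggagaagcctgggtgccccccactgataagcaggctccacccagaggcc
SLC7A11: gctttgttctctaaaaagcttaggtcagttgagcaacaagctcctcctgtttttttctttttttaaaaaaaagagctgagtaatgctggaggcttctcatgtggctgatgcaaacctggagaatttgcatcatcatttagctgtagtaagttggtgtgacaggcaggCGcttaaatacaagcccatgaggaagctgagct
ELMOD2: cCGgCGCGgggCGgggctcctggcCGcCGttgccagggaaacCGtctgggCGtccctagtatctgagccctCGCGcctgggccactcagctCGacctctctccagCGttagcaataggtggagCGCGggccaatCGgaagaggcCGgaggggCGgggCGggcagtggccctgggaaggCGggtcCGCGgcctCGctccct
The printed CpG-poor stretches hold between 0 CpGs (KEL) and 6 (GALNT15), against 22 in ELMOD2. Over the whole windows of 1001 bp, the CpG-poor promoters had a median of 11 CpGs (quartiles 7 and 17), and 10 of them had none. The CpG-rich windows had a median of 82.

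CpG-poor promoters were seldom accessible. A peak lay at 17.0% and 17.2% of them in the 2 GM12878 libraries, 6.87% and 7.1% in HEK293T, 18.0% and 17.1% in HFF1, and 14.1% and 12.9% in K562. In the same libraries 85.5% and 86.0%, 86.2% and 86.0%, 92.9% and 92.2%, and 85.5% and 84.8% of the CpG-rich promoters had a peak. The share was 73.6 percentage points lower at CpG-poor promoters on average over the 4 lines (SD 4.51 over lines), and it was lower in 8 of 8 libraries. With 4 lines as units, an exact two-sided sign-flip permutation test gave p = 0.125, which is the smallest value this design allows.

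Both replicates called 785 CpG-poor promoters in GM12878 (15.6% of the 5040), against 60.8% of all 19111 promoters. In HEK293T 285 were called (5.65%), against 56.5% of all promoters. In HFF1 775 were called (15.4%), against 65.8%, and in K562 584 (11.6%), against 59.3%. The members' share was below that of all promoters in every line. Neighbouring members sometimes shared a peak: in GM12878 replicate 1, for example, 46 of the 858 members with a peak shared 23 peaks.

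The lines differed in how many CpG-poor promoters they had open. The mean share was 17.1% ± 0.11 (SD, n = 2) in GM12878 and 17.5% ± 0.65 in HFF1. It was 13.5% ± 0.91 in K562 and 6.98% ± 0.17 in HEK293T. GM12878 and HFF1 overlapped, and K562 and HEK293T lay below both. Differences between lines made up 0.991 of the variance of the 8 values (exact one-sided permutation test over 105 pairings of the libraries, p = 0.0190, adjusted over 8 tests 0.0762). The CpG-rich share ran in another order, and HEK293T, at 86.1% ± 0.15, was not the lowest there. Consequently the CpG-rich share was 5.01 ± 0.015 times the CpG-poor share in GM12878, 5.29 ± 0.17 times in HFF1, 6.32 ± 0.39 times in K562 and 12.3 ± 0.32 times in HEK293T. For the log2 of this ratio, lines made up 0.995 of the variance (exact one-sided permutation p = 0.00952, the smallest the test can give, adjusted 0.0762). Neither difference passed 0.05 after adjustment.

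The HEK293T value stood beside the lowest depth. With every list scaled down to the HEK293T background level, a CpG-poor promoter had a peak in 14.1% of cases in GM12878, 12.4% in HFF1, 8.82% in K562 and 6.98% in HEK293T. With the 50000 peaks of lowest p-value in each library, the shares were 10.0%, 9.22%, 9.53% and 6.68% in the same order. HEK293T was lowest under both. Among the 3 lines whose peak names share their prefixes, the share of variance was 0.989 (exact permutation p = 0.0667, the smallest of 15 pairings). Without HEK293T it was 0.939 (exact permutation p = 0.133). The p-values measure only the spread between these libraries, which may be technical.

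**Figure D1:**
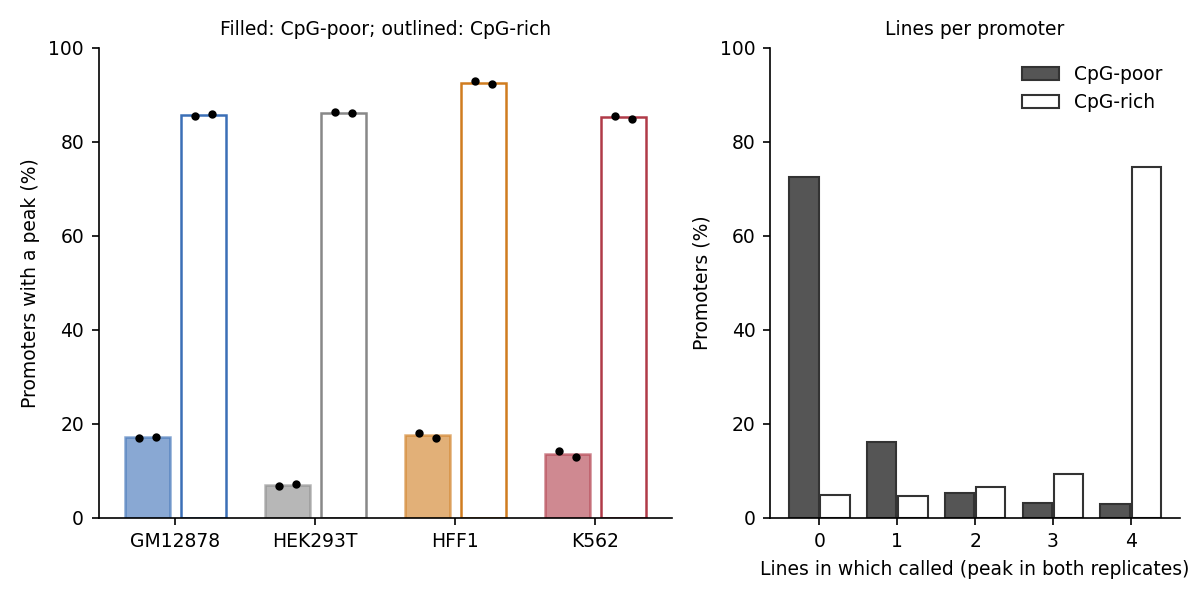
Left, percent of promoters with a peak in each line (bars, mean of 2 libraries; points, single libraries), CpG-poor filled and CpG-rich outlined. Right, percent of each class called in 0 to 4 lines; 72.4% of CpG-poor promoters were called in none and 74.7% of CpG-rich promoters in all 4.

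The share rose with the CpG ratio also among the CpG-poor promoters themselves. Of the 464 with a ratio below 0.1, between 1.72% (HEK293T replicate 1) and 11.6% had a peak in a library. Of the 666 just inside the limit, at 0.3 to 0.35, between 11.7% and 25.1% had one, and of the 494 just outside it, at 0.35 to 0.4, between 15.4% and 34.4%. The share went on rising past the limit in each library. The lowest ratio among the called members belonged to CHD9NB, whose window holds 1 CpG (ratio 0.0176). It had peaks of fold 2.89 and 3.83 in GM12878 and 5.57 and 6.21 in HFF1 and none elsewhere. The fold is the authors' own value for each peak, its height at the summit relative to the surrounding background, and describes peaks within a list only. CDC42SE2 also had 1 CpG, with folds of 5.36 and 7.22 in GM12878; its canonical start, 18560 bp away, is CpG-rich (ratio 0.861) and had a peak in 8 of 8 libraries.

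**Figure D2:**
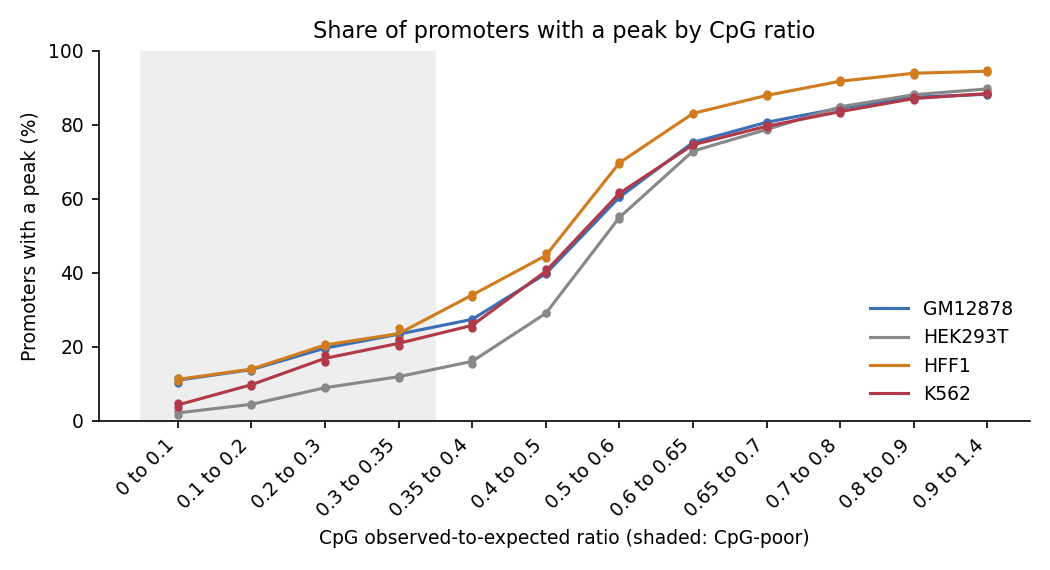
Percent of promoters with a peak (y axis) by CpG observed-to-expected ratio (x axis, bins), with points for libraries and lines for the mean of the 2 replicates. The 4 shaded bins are CpG-poor; the share climbs from at most 11.6% below 0.1 to at least 88.2% above 0.9, in every line.

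Base composition moved with the ratio. The 1680 CpG-poor promoters of lowest G+C (25.4% to 42.8%) had a peak in 4.52% to 13.2% of cases, depending on the library, and the 1684 of highest G+C (51.8% to 68.7%) in 9.38% to 23.5%. Their median ratios also differed, at 0.173 and 0.235, and the part of each in the accessibility was not tested.

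Where a CpG-poor promoter was accessible, the peak was narrower and lower than at CpG-rich promoters of the same list. Its median width was 414 ± 9.9 bp in GM12878, 262 ± 5.7 bp in HEK293T, 407 ± 8.1 bp in HFF1 and 283 ± 0.35 bp in K562 (mean ± SD of 2 libraries), against 855, 585, 904 and 883 bp. The log2 difference was -1.25 (SD 0.27 over lines). Its median fold was 6.98, 8.28, 6.85 and 5.93, against 10.2, 11.0, 9.36 and 9.28 at CpG-rich promoters, a log2 difference of -0.51 (SD 0.11). Both differences had the same sign in 8 of 8 libraries. The fold difference depended on weak peaks: over the 20000 peaks of lowest p-value it was 0.0038. The summit lay a median of 128, 130, 138 and 97.2 bp from the gene start, against 84.5, 92.5, 82.0 and 83.0 bp. This difference of 37.9 bp (SD 17.5) depended on the window and the start: it was 0.563 bp with windows of 250 bp either side and 1.31 bp with canonical transcript starts. A peak at a CpG-poor promoter was found again in the other replicate in 79.6% to 91.5% of cases, and one at a CpG-rich promoter in 97.6% to 99.3%. For each of these differences the exact sign-flip permutation test over 4 lines gave p = 0.125, its smallest value.

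Around the gene start, the CpG-poor promoters formed a sharp but low summit of accessibility. At the start itself a peak covered 10.9% of them in both GM12878 libraries, 3.71% and 3.85% in HEK293T, 11.0% and 10.5% in HFF1 and 8.95% and 8.04% in K562. Averaged over distances of 4000 to 5000 bp it covered 1.02% to 2.87%, so that the start exceeded the flank 3.61 to 4.25 times. For CpG-rich promoters the ratio of start to flank was 47.1 to 146.

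A shoulder lay 1 to 2 kb downstream of the CpG-poor starts, where coverage was 1.80 to 2.30 times that at the same distance upstream. It moved with the presence of a CpG-rich start nearby. For 196 members the gene's canonical start was CpG-rich and lay within 2500 bp downstream, and 26.8% to 47.9% of these were covered there. For the other 4844 the coverage downstream was 1.13 to 1.37 times that upstream.

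**Figure D3:**
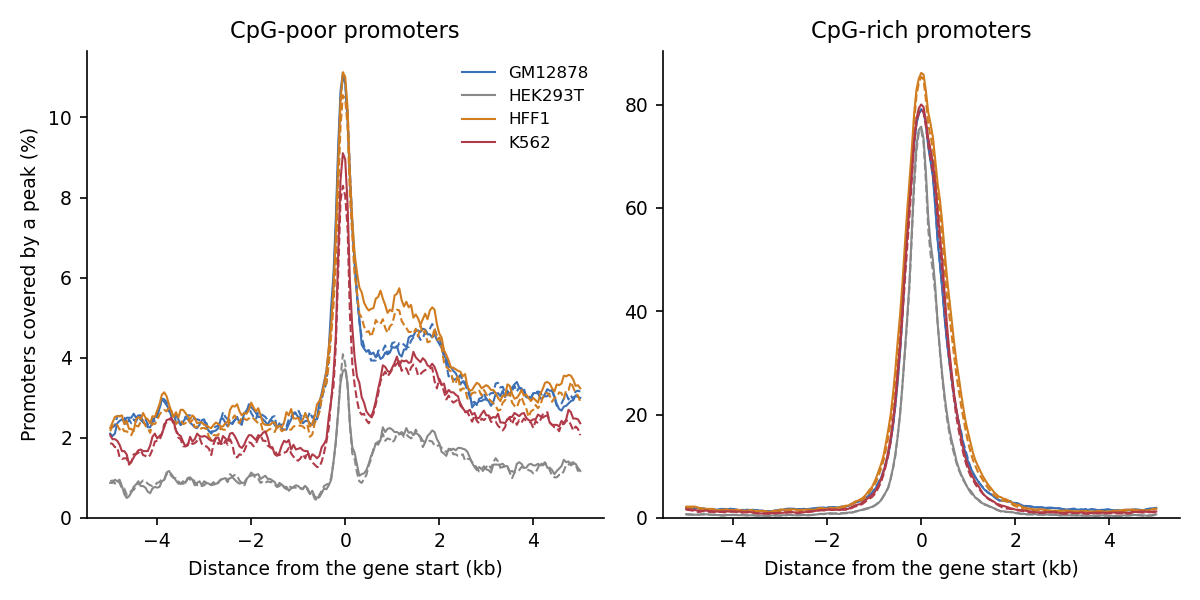
Percent of CpG-poor (left) and CpG-rich (right) promoters covered by a peak against distance from the gene start in kb, positive values inside the gene; solid and dashed lines are replicates 1 and 2, and the y axes differ. CpG-poor promoters reach at most 11.1% and show a shoulder downstream.

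The annotated gene start is the far end of the gene model and not always its main start. It was the canonical start for 2565 of the 5040 members. Of these, 12.6% and 13.1% had a peak in GM12878, 4.87% and 5.42% in HEK293T, 12.9% and 11.8% in HFF1 and 11.1% and 10.0% in K562. The 2475 whose canonical start lies elsewhere had higher shares in every library, from 8.85% in HEK293T to 23.3% in HFF1. For 790 of these the canonical start was CpG-rich. With canonical starts in place of gene starts for all genes, the mean shares of CpG-poor promoters were 18.3% in GM12878, 7.24% in HEK293T, 17.7% in HFF1 and 14.2% in K562.

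Most CpG-poor promoters that were called in any line were called in a single line. Of the 5040, 3330 (66.1%) had no peak in any of the 8 libraries, against 3.57% of CpG-rich ones. The remaining 1710 (33.9%) had a peak in at least 1 library, against 76.0% of all promoters. Of the 1391 called in some line, 813 were called in 1 line, 268 in 2, 160 in 3 and 150 in all 4. Those 150 are 2.98% of the 5040, against 48.8% of all promoters. Over called promoters only, 10.8% of the CpG-poor and 78.5% of the CpG-rich were called in all 4 lines, against 66.9% of all. Pairs of lines shared between 0.231 (GM12878 with HEK293T) and 0.337 (GM12878 with K562) of the CpG-poor promoters called in either. For CpG-rich promoters these values were 0.853 to 0.900.

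A promoter is termed restricted when it was called in a line and had no peak in any library of the others. GM12878 had 265 restricted CpG-poor promoters, 5.26% of the 5040, against 1.81% of all promoters. HFF1 had 253 (5.02%), against 2.99% of all promoters, and K562 118 (2.34%), against 1.29%. HEK293T had 11 (0.218%), below the 0.497% of all promoters. Taken over the called CpG-poor promoters only, the restricted share was 33.8% in GM12878, 32.6% in HFF1, 20.2% in K562 and 3.86% in HEK293T. Among called CpG-rich promoters it was between 0.278% and 1.71%. The difference between called promoters of the classes averaged 21.8 percentage points over lines (SD 13.8, from 3.17 in HEK293T to 33.5 in GM12878; exact sign-flip permutation p = 0.125, the smallest possible). The HEK293T count depended on the lists used: with a single HEK293T library it was 19 or 22, and with all lists scaled to its background it was 23, while the K562 count was then 68.

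The restricted promoters of GM12878 with the highest ranks belonged to SMIM6, RGS1, MS4A1, LY9, SP110 and MNDA. MS4A1 encodes CD20, the B-cell surface antigen, and its window holds 5 CpGs (ratio 0.105). Its peak had a fold of 10.3 and 10.1 in the 2 GM12878 libraries. RGS1, a regulator of G protein signalling in lymphocytes, had folds of 9.31 and 8.77, and LY9, a SLAM-family receptor of lymphocytes, 10.2 and 11.2. MNDA had folds of 14.2 and 13.1, and SMIM6, a small membrane protein, 18.6 and 17.0. SP110, a nuclear body protein, had 9.0 and 8.67. None of the 6 had a peak in HEK293T, HFF1 or K562. SP110 is a case of a second start: its canonical start, 5745 bp away and also CpG-poor (ratio 0.339), had a peak in 7 of 8 libraries.

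List counts here and below are read against all CpG-poor promoters. Of these, 15.6% were called in GM12878, 5.65% in HEK293T, 15.4% in HFF1 and 11.6% in K562. Restricted were 5.26%, 0.218%, 5.02% and 2.34% in the same order. Of 33 CpG-poor promoters on a list of 41 B-cell genes, 23 were called in GM12878, 1 in HEK293T, 4 in HFF1 and 5 in K562, and 17 were restricted to GM12878. The HFF1 and K562 counts were near the share of the class. Among the 17 were CD79A and CD79B of the B-cell receptor complex, MS4A1, FCER2, CD37, CD48, CD86, PTPRC, SLAMF1, TNFRSF17, the chemokine receptors CCR7 and CXCR5, and the Fc receptor-like genes FCRL2, FCRL3, FCRL4 and FCRL5. Another 7, CD53, FCRL1, CR2, LTB, BLK, CIITA and VPREB3, had no peak in any library at their gene start. CD22 had a peak at its gene start in both HFF1 libraries and K562 replicate 1, and none in GM12878. Its canonical start, 9926 bp away and also CpG-poor (ratio 0.237), had peaks in GM12878 alone. CD80, the costimulatory ligand, was the list member with peaks in 8 of 8 libraries, with folds from 6.31 in GM12878 replicate 2 to 16.4 in HEK293T replicate 1. Among 10 CpG-poor HLA class II promoters, 7 were called in GM12878, 1 in HEK293T, 4 in HFF1 and 2 in K562. HLA-DRB1 was accessible in GM12878 alone, at folds of 12.8 and 13.6. HLA-DRA had 9.69 and 9.16 there, 7.33 and 5.32 in HFF1 and 5.61 in K562 replicate 1. HLA-DMB, which encodes a chain of the peptide exchanger HLA-DM, was called in every line. The near-identical copies in this family can share reads.

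In K562 the leading restricted promoters were those of RHAG, KEL, MYBPC2, AOC1, ZNF280A and HBE1. RHAG had folds of 9.50 and 9.53, and KEL 8.66 and 9.10, and both are red cell membrane genes that start at the canonical transcript. MYBPC2, a muscle myosin-binding protein, had 10.7 and 11.4, but the summits of its peak lay at -1152 and -1150 bp from the start, outside the window. AOC1, a diamine oxidase, had 9.36 and 11.8, and ZNF280A, a zinc finger gene, 5.48 and 5.29. The canonical start of AOC1, 27890 bp away, had a peak in GM12878 replicate 2 and none in K562. HBE1 needs care. Its gene model, like that of HBG2, begins with a long upstream transcript at the start of the olfactory receptor gene OR51B5, so these 3 members share 1 peak, with folds of 8.38 and 8.12. The canonical start of HBE1, embryonic epsilon globin, lies 235707 bp away, is CpG-poor as well (ratio 0.154) and had a peak in 2 libraries, both of K562. The canonical start of HBG2, a fetal gamma globin, had none. HBG1 and HBG2 are near-identical copies, so their reads may not be told apart, and a missing peak there need not mean closed DNA.

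Of 27 CpG-poor promoters on a list of 45 erythroid and megakaryocytic genes, 13 were called in K562, 1 in GM12878 and 2 each in HEK293T and HFF1, and 11 were restricted to K562. Among these were RHAG, HBE1, HBG2, HBD, HBZ, GYPB, GYPE, EPB42, CA1 and LMO2. HBE1 and HBG2 both enter this count through the single peak they share. GYPE had folds of 12.2 and 10.2 and GYPB 7.55 and 8.65; the glycophorin genes are near-identical copies, so their reads may not be told apart. EPB42, the red cell protein 4.2, had 5.68 and 7.41. Another 12 list members had no peak in any library at their gene start, among them HBB, adult beta globin, AHSP, its chaperone, KLF1, SLC4A1 and HEMGN. Peaks at the canonical starts of these genes are not given here. NFE2, which encodes an erythroid transcription factor, was called in every line, with folds of 13.7 and 8.29 in HEK293T and 5.88 and 5.89 in K562; another gene starts within 1000 bp of it.

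In HFF1 the leading restricted promoters were those of MB, DNAJC6, NREP, TMEM71, LRRN4CL and PSORS1C1. MB encodes myoglobin, and its peak (folds 13.6 and 14.5) reached a gene start 20622 bp from the canonical one, where no library had a peak; its summits lay at -705 bp, outside the window. DNAJC6, an auxilin, had 13.9 and 14.2, at a start 61324 bp from a CpG-rich canonical start (ratio 0.867) that was accessible in 8 of 8 libraries. NREP had 12.5 and 12.6, with summits at -510 bp, LRRN4CL 12.3 and 13.0 and PSORS1C1 11.6 and 11.0. Of the 6, LRRN4CL starts exactly at its canonical transcript, TMEM71 and PSORS1C1 within 130 and 50 bp of it, and NREP 240270 bp from a canonical start (ratio 0.598) with peaks in 8 of 8 libraries.

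Of 22 CpG-poor promoters on a list of 52 fibroblast genes, 15 were called in HFF1, 4 in GM12878, 2 in HEK293T and 3 in K562. The 8 restricted to HFF1 were those of the collagen COL3A1, the small proteoglycans DCN and OGN, DPT, the protease FAP, the collagenase MMP1, the stromelysin MMP3 and the actin-binding TAGLN. MMP3 had folds of 7.57 and 7.84 and MMP1 5.41 and 5.56. Among 12 CpG-poor promoters of matrix metalloproteinases, 7 were called in HFF1, 2 in GM12878 and 1 each in HEK293T and K562. MMP10 was an exception to the restriction, with 15.1 and 10.5 in HFF1, 12.8 and 15.6 in HEK293T and 11.1 and 7.32 in GM12878. LUM, lumican, had 8.55 and 9.04 in HFF1 and 4.85 in HEK293T replicate 2.

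HEK293T offered few such promoters. Its leading restricted members were NRXN3 (folds 9.47 and 11.4), GPR149, an orphan receptor (6.93 and 9.63), BMP5, a bone morphogenetic protein (11.9 and 6.62), SLC46A1, the folate transporter (5.90 and 9.42), SLC47A2, a renal cation exporter (7.56 and 6.69), and GPA33, an intestinal antigen (5.48 and 8.70). SLC46A1 has its CpG-rich canonical start 985 bp away, which had a peak in 7 of 8 libraries, and its summits lay at -527 and -570 bp, outside the window. The canonical start of SLC47A2, 2395 bp away, had a peak in 2 libraries, both of HFF1. That of GPA33, 76102 bp away, had a peak in GM12878 replicate 2 alone. On a list of 22 kidney and neural genes 3 promoters were CpG-poor, EYA1, UMOD and CDH16, and none of them had a peak in any library.

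**Figure D4:**
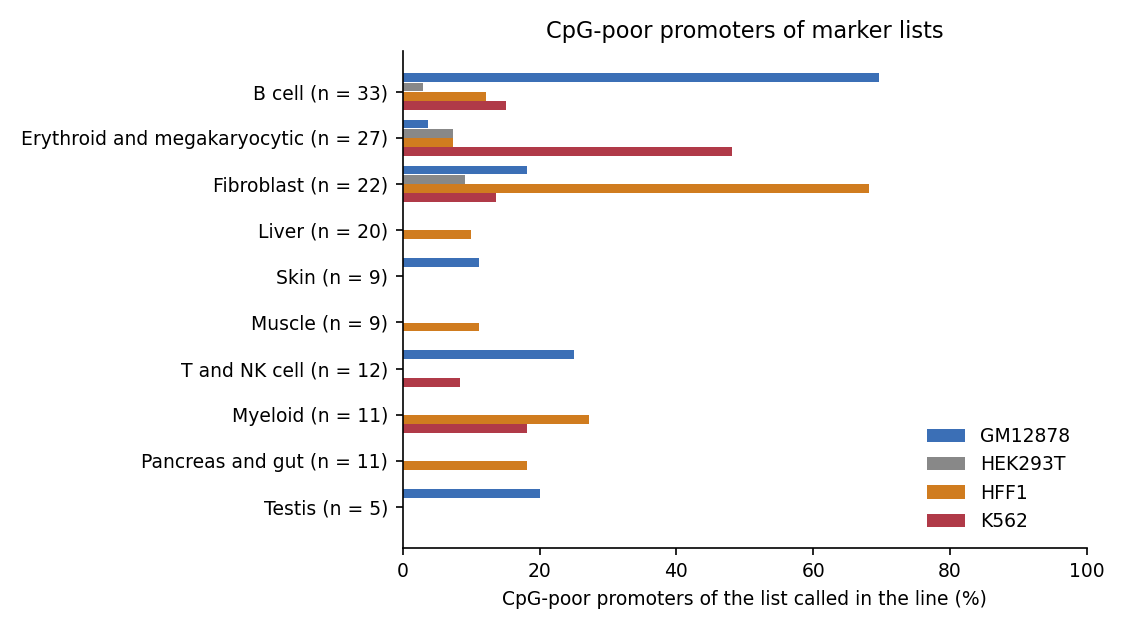
Percent of the CpG-poor promoters of each marker list (y axis, with their number) that were called in each line (bars). In the B-cell list 23 of 33 were called in GM12878, in the erythroid list 13 of 27 in K562 and in the fibroblast list 15 of 22 in HFF1. Over all CpG-poor promoters 15.6% were called in GM12878, 5.65% in HEK293T, 15.4% in HFF1 and 11.6% in K562.

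Promoters on the lists of other tissues and blood cells are read against the 66.1% of all CpG-poor promoters that had no peak. No peak in any library lay at 16 of 20 CpG-poor liver promoters, 8 of 9 of skin, 8 of 9 of muscle, 8 of 11 (72.7%) of pancreas and gut and 4 of 5 of testis, so that pancreas and gut were near the share of the class. For T and NK cell genes this held for 7 of 12 (58.3%). Of the others, GNLY, NKG7 and PRF1, all cytotoxic granule genes, were restricted to GM12878. CD3D was restricted to K562, and GZMB had a peak in GM12878 replicate 2 alone. The canonical start of GNLY, 9183 bp away, had a peak in no library. No peak in any library lay at 6 of 11 (54.5%) myeloid promoters, although K562 itself comes from a chronic myeloid leukaemia. Here CSF1R, S100A12 and CD14 were restricted to HFF1, with folds of 6.84 and 6.73, 12.7 and 11.1, and 6.84 and 7.34, and CD33 and LYZ to K562. The summits lay outside the window for CSF1R (at 600 and 601 bp) and CD14 (at 932 and 992 bp). The canonical start of CD14, 525 bp away, had a peak in both libraries of GM12878 as well as of HFF1, and that of CSF1R had none. IVL, which encodes involucrin of the skin barrier, was accessible in GM12878 alone (9.35 and 10.0).

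The large families of the chemical senses and of skin and hair were closed nearly throughout. Of 396 CpG-poor olfactory receptor promoters, 365 (92.2%) had no peak, as had 21 of 23 of the TAS2R bitter taste receptors, 40 of 44 keratins, 80 of 86 keratin-associated proteins, 37 of 40 beta-defensins and 26 of 29 of the LCE and SPRR genes of the cornified envelope. Over all CpG-poor promoters 66.1% had none. OR51D1 was the olfactory exception in all 4 lines, with folds of 17.7 and 18.8 in GM12878, 16.6 and 13.7 in HEK293T, 8.90 and 7.51 in HFF1 and 11.1 and 11.3 in K562. Of the other called olfactory receptors, 7 were restricted to GM12878 and 7 to K562. The 7 in K562 include OR51B5, through the peak it shares with HBE1 and HBG2. Its canonical start, 162128 bp away, had a peak in GM12878 replicate 1 alone.

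Immune signalling families had a smaller share of promoters without a peak than the class as a whole, a difference that was not tested. Of 32 CpG-poor chemokine promoters (CCL and CXCL), 17 had no peak, 8 were called in GM12878 and 7 in HFF1, and 6 and 4 of these were restricted to those lines. CCL3 and CCL4L2 were accessible in GM12878 alone (8.30 and 8.12, and 13.8 and 13.3), and CCL7, CCL2 and CXCL10 in HFF1 alone (13.1 and 13.4, 5.37 and 6.33, and 11.6 and 9.45). CCL4L2 belongs to a copy-number family with near-identical members. Of 49 promoters of interleukin and interleukin receptor genes, 27 had no peak, and 11 were called in HFF1 and 9 in GM12878. Over all CpG-poor promoters 15.4% were called in HFF1 and 15.6% in GM12878, and the GM12878 count was near that share. Of 49 promoters of CD antigens, 20 had none and 19 were called in GM12878, 13 of them restricted to it. For the metabolic families the shares without a peak were 28 of 37 for cytochromes P450, 18 of 23 for serpins and 82 of 121 (67.8%) for solute carriers, the last close to the 66.1% of the class. CYP4F3, which oxidises leukotriene B, was accessible in K562 alone, with folds of 14.2 and 15.5.

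The 150 CpG-poor promoters called in all 4 lines had a median of 17 CpGs, a median ratio of 0.260 and a median G+C of 53.1%. The 647 restricted ones had 12, 0.207 and 49.2%. The gene start was the canonical start for 54 of the 150. For 14 of them (9.33%) a CpG-rich canonical start lay within 1000 bp, against 5 (0.773%) of the 647. The leading 8 were ERI1, GPD1L, ABHD2, TRIM21, PICALM, SPATA7, NPTN and SLC7A11. In all but TRIM21 and SLC7A11 the canonical start lay 733 to 997 bp from the gene start and had a ratio of 0.606 to 0.857, with peaks there in 8 of 8 libraries. The peaks of these 6 reach the CpG-poor window from there, with summits 608 to 857 bp downstream of the gene start and outside the window in every library. With the summit required inside the window, 115 promoters in place of 150 were called in all 4 lines. TRIM21, an antibody-binding ubiquitin ligase, starts at its canonical transcript and had folds of 23.5 and 19.3, 18.0 and 20.4, 16.2 and 17.3, and 15.0 and 15.6 in GM12878, HEK293T, HFF1 and K562. SLC7A11 had 14.8 and 13.9, 14.5 and 14.2, 12.5 and 12.8, and 9.60 and 9.41 in the same order; its ratio of 0.345 lies just inside the limit.

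The sequences under the summits differed between the classes and between lines. Consensus letters were searched on both strands in the 101 bases centred on the summit, in peaks at CpG-poor promoters, at CpG-rich promoters and in all autosomal peaks of the list. The GC box GGGCGG, bound by SP and KLF factors, lay in 11.2% to 15.3% of the CpG-poor promoter peaks (line means), against 53.6% to 58.2% of the CpG-rich ones and 10.3% to 20.5% of all peaks; the string itself contains a CpG. The AP-1 site TGANTCA was most frequent in HFF1, with 17.2% ± 0.76 of the CpG-poor promoter peaks (mean ± SD of 2 libraries). K562 followed at 12.4% ± 0.71, then GM12878 at 7.91% ± 0.30 and HEK293T at 4.76% ± 1.6. At CpG-rich promoters it lay in at most 1.31%. All peaks of the lists held it in 17.9%, 9.25%, 9.21% and 3.86%, an order close to that at CpG-poor promoters.

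The GATA letters AGATAA, a form of the site bound by the GATA factors of red cell development, lay in 7.76% ± 0.25 of the CpG-poor promoter peaks of K562, against 2.23% to 2.65% elsewhere. Other forms of that site, such as TGATAA, were not searched. Over all K562 peaks the value was 8.66%. Among promoters restricted to K562 they lay in 21 and 20 of 116 peaks, a mean of 17.7%. The PU.1 letters GAGGAAGT, read by an ETS factor of B and myeloid cells, lay in 5.31% ± 0.48 of the CpG-poor promoter peaks of GM12878, against 2.82% of all its peaks and 1.13% to 2.00% at the CpG-poor promoters of the other lines. In promoters restricted to GM12878 they lay in 20 of 263 peaks (7.60%) in both libraries. AP-1 letters lay in 55 and 52 of 252 peaks at promoters restricted to HFF1, a mean of 21.2%. At promoters called in all 4 lines, none of the 3 strings was over 5.10% in any line. There the CTCF letters AGNNGGCGC lay in 8.16% to 10.9%, against 0.595% to 2.16% at restricted promoters of GM12878, HFF1 and K562. They lay in 8.57% to 9.20% of the peaks at CpG-rich promoters and in 3.64% to 8.50% of all peaks, and this string too contains a CpG. Peaks shared by CpG-poor and CpG-rich promoters were left out of the 2 class sets. They were kept for restricted promoters and those called in all 4 lines. Of the 150 called in all 4 lines, 14 or 15 per library had a peak reaching the window of a CpG-rich start (9.33% to 10%). At restricted promoters this was at most 1.98%. Its part in the CTCF difference was not tested. A match describes the letters and not a bound site.

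Examples are found in the sequences printed above. They are shown with the matching letters in capitals, between neighbouring bases, on the gene's strand. KEL has a GATA match from -62 to -57 (chr7:142962408-142962437, minus strand), and the summits in K562 lay 43 and 40 bp upstream of the start. TNFAIP6 has an AP-1 match from -129 to -123 (chr2:151357451-151357481, plus strand), with HFF1 summits 115 and 100 bp upstream. MNDA has a match to GAAANNGAA, the repeat read by interferon regulatory factors, from -85 to -77 (chr1:158831254-158831286, plus strand), with GM12878 summits 79 and 98 bp upstream. The IRF string lay in 7.06% ± 1.3 of the CpG-poor promoter peaks of GM12878 and in 5.88% of all its peaks. The same held in the other lines, with 4.34% against 1.74% in HEK293T, 5.25% against 3.44% in HFF1 and 3.52% against 1.90% in K562.
KEL: cctgagaagctgAGATAAagggggaggaga
TNFAIP6: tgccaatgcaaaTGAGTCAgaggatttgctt
MNDA: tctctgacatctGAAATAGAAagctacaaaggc
Each match lies within 50 bp of the summit. TNFAIP6 also has GATA letters at -101. The printed stretches of SLAMF1, NRXN3, GALNT15, RHAG and SLC7A11 have none of the strings searched, which says only that these letters are not in these stretches.

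**Figure D5:**
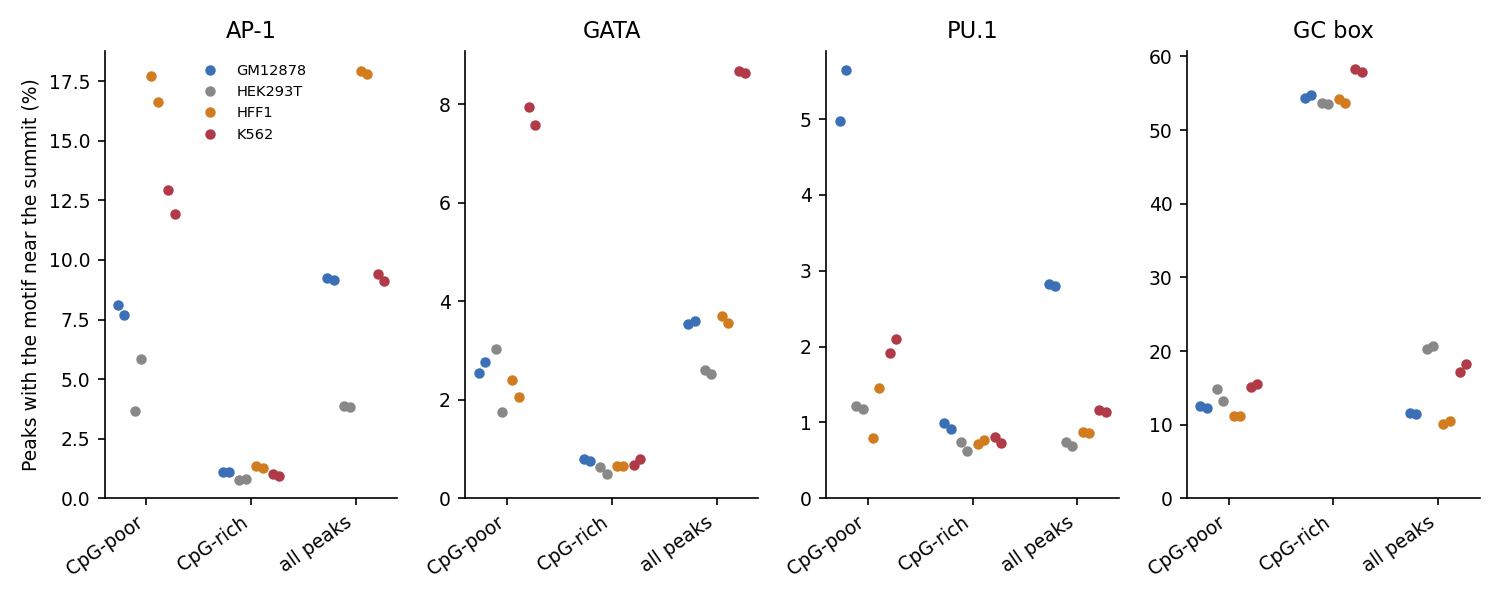
Percent of peaks (y axis, a scale of its own in each panel) with the letters of AP-1, GATA, PU.1 or the GC box within 50 bp of the summit, for peaks at CpG-poor promoters, at CpG-rich promoters and all autosomal peaks (x axis); each point is a library. At CpG-poor promoters and over all peaks, GATA letters are most frequent in K562 and PU.1 letters in GM12878; the GC box is most frequent at CpG-rich promoters.

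TATA letters were more frequent in CpG-poor promoters than in the others, and less frequent in the called ones than in those without a peak. Neither difference was tested. TATAAA holds only A and T, and the groups differed in base composition. Over all gene starts, median G+C was 47.2% in CpG-poor and 64.1% in CpG-rich promoters. Among CpG-poor promoters it was 50.1% in those called in a line and 45.7% in those with no peak. The part of base composition was not tested. The letters TATAAA within 16 to 40 bases upstream of a canonical start, on the gene's strand, occurred in 286 of 2565 CpG-poor promoters (11.2%), against 2.62% of the CpG-rich promoters and 5.50% of all promoters with canonical starts. Over all gene starts the shares were 6.81% of CpG-poor, 1.41% of CpG-rich and 3.04% of all promoters. They occurred in 40 of the 544 that were called in a line (7.35%) and in 232 of the 1880 with no peak (12.3%). Of the 54 called in all 4 lines, 2 held them. The restricted promoters differed by line, with 13 of 99 (13.1%) in HFF1 and 10 of 113 (8.85%) in GM12878. In K562 it was 1 of 58 (1.72%), and in HEK293T 2 of 6.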

How the data were processed

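Bulk ATAC-seq peaks of 8 human libraries (GM12878, HEK293T, HFF1 and K562, 2 replicates each, grouped by their labels) were analysed; the 2 mouse libraries were not used. The authors deposited 1 narrowPeak list per library, with replicates not pooled. The submitters' processing notes name cutadapt 3.2, Bowtie2 2.4.2, Picard, MACS2 2.2.7.1 and hg38; their settings, a read shift and a duplicate filter are not given in the sources used here. For every peak the authors deposited its position and summit, a score, a fold (ratio of height to surrounding background) and the −log10 of its p-value and q-value. The deposited −log10 q starts at 2.00 in the least strict list, a q threshold of 0.01. The lists hold no read totals; a pileup and a background were recovered from each deposited fold and −log10 p, under the relation fold = (pileup + 1)/(background + 1), for 100% of peaks. Precision is limited by the number of libraries and by depth.

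CpG ratios, G+C and sequences came from GRCh38 and starts from GENCODE release 44; no peak passed a chromosome end. Coordinates count from 1. Where several peaks overlapped a window, the one of highest −log10 p was used, and ranks are percentiles of −log10 p within a list. Line effects were tested by the share of variance between lines with an exact permutation over pairings, and class differences by exact sign flips of the 4 line means, with Benjamini-Hochberg adjustment over 8 tests. The scripts (Python 3.11.15, numpy 2.4.6, pandas 2.3.3, scipy 1.17.1) were tested on simulated data. Named promoters are the 6 restricted ones of highest mean rank per line, the 8 of highest mean rank called in all 4 lines, the 3 of lowest ratio and up to 8 per list or family, those with peaks in the most libraries first; other list members, named with or without values, were chosen after their values were seen, as were the printed sequences and the letter strings. Some promoters that the rule names are not reported here. Members and lists were chosen with earlier results of these data known. Alternatives tried were other windows, limits, starts, peak filters, list lengths, single replicates and lines, a replicate block and depth scaling.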

Additional observations from a re-analysis of the deposited data

How the results depend on the processing

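CpG-poor promoters had the lower share of peaks, the narrower peaks and the larger restricted share under all alternatives run. The 20000 strongest peaks per library changed the sign of the fold difference (log2 0.0038, exact permutation p = 1). With 8 libraries as units the class differences kept their values (-73.6 points, log2 fold -0.51, log2 width -1.25, restricted 21.8 points, found again -12.1 points, summit 37.9 bp), each with an exact permutation p = 0.00781; this counts both replicates of a line as independent, and the restricted share is a single value per line entered for both. Replicate numbers did not pair the libraries (correlation of deviations between -0.0130 and 0.0141); with a replicate block, the variance share of the CpG-poor percentage was 0.994 (exact permutation p = 0.0833). Chosen after seeing the data, leaving out GM12878 gave 0.989 and, for the class ratio, 0.993 (both p = 0.0667, exact permutation); leaving out HEK293T gave 0.939 (p = 0.133) and 0.924 (p = 0.0667), in designs of 15 pairings that cannot pass 0.05. The summit difference was 0.563, 276 and 1.31 bp with windows of 250 and 1000 bp and with canonical starts, and 11.4 bp for summits inside the window. Counts of called promoters moved as follows. Windows of 1000 bp either side gave 445 in HEK293T and 273 in all 4 lines. Lists of 50000 peaks gave 468 in GM12878 and 418 in HFF1, with 156, 28 and 125 restricted to GM12878, HEK293T and HFF1. Lists of 20000 gave 193, 106, 159 and 163 in GM12878, HEK293T, HFF1 and K562, 76, 26, 53 and 45 restricted, and 26 in all 4. A peak in either replicate gave 30 restricted to HEK293T and 186 to K562. Scaling to the HEK293T background, also chosen after seeing the data, gave 379 called in K562 and 23 and 68 restricted to HEK293T and K562. Leaving out a library gave 11 to 22 restricted to HEK293T. The other counts stayed within 1.5 times. Fewer peaks remain in the shorter and scaled lists by construction; the cause of the other shifts was not tested.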
